A study of Mus musculus with 3 samples.

Results

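The vitamin D receptor gene Vdr and 8 genes whose products pair with the receptor, act on transcription with it or have been proposed to bind its hormone were followed across 3 arrays of a mouse kidney cell line. They are, out of 24700 genes with a current symbol on the array, Vdr, Rxra, Rxrb, Ncor1, Ncoa1, Ncoa2, Ncoa3, Med1 and Pdia3. Their probes were taken by gene name from the array design, which gave 28 of the 56605 non-control probes, with between 2 and 8 probes per gene. Each group was 1 array of total RNA from mpkDCT cells, a line derived from the mouse distal convoluted tubule, in all cases with the Cyp27b1 gene knocked out by CRISPR-Cas9. One culture received 1,25(OH)2D3 (calcitriol) at 1e-07 M, one received 25(OH)D3 (calcidiol) at 1e-07 M and one, labelled control, received vehicle, each for 24 h in medium with 2% charcoal-stripped serum and no phenol red. Titles of all 3 samples also carry the tag siCT, which the labels do not explain, and the labels do not say whether the knockout cells were 1 clone. For the calcidiol sample 1 label writes 25(OH)2D3, while its treatment entry gives 25(OH)D3, which is used here.

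The vitamin D receptor is a nuclear receptor that binds DNA as a heterodimer with a retinoid X receptor, typically at direct repeats spaced by 3 bases. Without hormone the heterodimer can be held by corepressors such as NCoR1, and calcitriol turns the receptor towards coactivators of the p160 family (NCoA1, NCoA2 and NCoA3) and towards the Mediator complex, which it contacts through MED1. Calcitriol is made from calcidiol by the enzyme that Cyp27b1 encodes and binds the receptor far more tightly than calcidiol does. In the distal tubule this receptor governs genes of calcium reabsorption and of vitamin D breakdown.

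Since every group is a single array, differences stand without replicates and without p-values. An array reports light from labelled RNA at each probe, here as a processed signal on a linear scale. Differences are given as log2 after each array was divided by its own 75th percentile signal, which was 251.9 for calcitriol, 268.8 for calcidiol and 248.8 for vehicle. The error written after ± is the one the scanner software assigns to a spot. Per the file headers it includes a fixed 10% term, which sets nearly all of it for bright probes, so it is no spread between cultures. A transcript level per cell and the share of cells that carry it cannot be told apart in such bulk RNA. Calcitriol, calcidiol and vehicle cells were each 1 array, so culture and treatment cannot be told apart either. Between 47.5% and 48.9% of probes were well above background on each array.

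The label of the cells was set against marker genes. Of 8 markers of the distal convoluted tubule, 3 were well above background with calcitriol, 3 with calcidiol and 2 with vehicle. Slc12a3, the thiazide-sensitive cotransporter that defines this segment, did not pass the background test on a single array, nor did Trpm6, Calb1, Slc8a1 and Klhl3. The tubule genes Cdh16 and Pax8 were detected on all 3 arrays, whereas the epithelial genes Epcam, Cdh1, Krt8 and Krt18 were not. Of 5 fibroblast markers, 3 were detected on every array, with a summed signal of 420.5 for calcitriol, 967.2 for calcidiol and 2066 for vehicle. Most of that sum was Postn, the matrix protein periostin, with 272.1 for calcitriol, 707.2 for calcidiol and 1647 for vehicle. Markers of other nephron segments were also detected on every array, namely 2 of 4 for the proximal tubule and 1 of 4 for the collecting duct, and 0 of 2 for the thick ascending limb. The water channel gene Aqp1 had signals of 755.9 for calcitriol, 839.3 for calcidiol and 1189 for vehicle. Cubn, for an endocytic receptor of the proximal tubule, had 136.3 for calcitriol, 160.9 for calcidiol and 151.4 for vehicle, and Aqp2, the collecting duct water channel, had 75.3 for calcitriol, 80.4 for calcidiol and 102.7 for vehicle. The part of these markers in the results on the receptor genes was not tested. The probe for the targeted gene Cyp27b1 had signals of 7.05 for calcitriol, 3.82 for calcidiol and 2.91 for vehicle, none well above background. Its place relative to the edit is not given, so it does not check the knockout.

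All 28 probes were well above background with calcitriol and with vehicle, and 26 were so on all 3 arrays, against 45.5% of all probes. Each of the 28 stood on the array once. The probes below are 60 bases long and are shown because the reading of their genes depends on which probe is used. They are printed in lower case, as designed on mm9, in the 5′ to 3′ direction of the probe, with a span longer than 60 bases where the design places a probe in more than 1 piece. Probes of a gene are numbered from the brightest. The first is the Ncoa3 probe with the widest distance from vehicle, on the + strand at chr2:165895353-165895412. The next pair reads Ncor1 in its own direction, on the - strand at chr11:62211860-62211919 and chr11:62131484-62132878. The pair after it also carries the name Ncor1 but lies on the opposite + strand at chr11:62145208-62145267 and chr11:62139812-62139871. The Rxrb pair lies on the + strand at chr17:34173690-34173864 and chr17:34173894-34174155, and the Pdia3 pair on the + strand at chr2:121263343-121263402 and chr2:121258023-121258082.
Ncoa3 probe 3: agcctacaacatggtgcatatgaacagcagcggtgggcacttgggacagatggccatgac
Ncor1 probe 3: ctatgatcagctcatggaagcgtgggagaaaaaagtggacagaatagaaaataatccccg
Ncor1 probe 2: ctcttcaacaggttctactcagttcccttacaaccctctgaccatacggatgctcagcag
Ncor1 name, opposite strand, probe 4: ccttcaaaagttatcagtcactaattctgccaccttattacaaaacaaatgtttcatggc
Ncor1 name, opposite strand, probe 8: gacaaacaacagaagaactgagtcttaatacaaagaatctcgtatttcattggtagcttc
Rxrb probe 2: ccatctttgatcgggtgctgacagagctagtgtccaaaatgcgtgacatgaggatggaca
Rxrb probe 3: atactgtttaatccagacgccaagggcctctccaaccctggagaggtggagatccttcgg
Pdia3 probe 1: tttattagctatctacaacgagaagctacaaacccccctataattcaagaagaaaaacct
Pdia3 probe 2: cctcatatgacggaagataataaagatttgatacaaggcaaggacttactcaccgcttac

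Of 23 probes of these genes whose gene strand a RefSeq table gives, 2 lay opposite to their gene, both under the name Ncor1 and both designed from cDNA clones. Over all probes with both strands known, 0.76% of 34384 lay opposite. These 2 probes are therefore described apart below from the other 6 probes of that name. Counts and means over probes still include them.

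The receptor itself was followed first, with a gene that calcitriol acts on through it as the readout of its activity. Cyp24a1, the 24-hydroxylase that breaks down vitamin D metabolites, had a signal of 5443 with calcitriol, 288.5 with calcidiol and 2.68 with vehicle, where it was not well above background. It was at least 403-fold higher with calcitriol and at least 20.0-fold higher with calcidiol than with vehicle. The Vdr transcript showed no difference of that order. Its brighter probe (chr15:97685989-97686056, mm9, - strand) had signals of 1386 with calcitriol, 1379 with calcidiol and 1560 with vehicle. Its other probe (chr15:97685136-97685195) had 1052 with calcitriol, 1056 with calcidiol and 1107 with vehicle. Both probes read highest on the vehicle array and nearly alike on the hormone arrays.

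After scaling, the brighter Vdr probe stood at -0.19 ± 0.20 with calcitriol and at -0.29 ± 0.20 with calcidiol relative to vehicle, on the log2 scale. The other probe stood at -0.09 ± 0.20 with calcitriol and -0.18 ± 0.20 with calcidiol. The signal with calcitriol was thus 0.88 times that with vehicle by the brighter probe, and the signal with calcidiol 0.82 times that with vehicle. Between the hormones the 2 probes gave 0.10 ± 0.20 and 0.09 ± 0.20, calcitriol minus calcidiol. Both hormone differences use the same vehicle array, so their shared direction is not 2 observations. The central range of all 26322 probes measured with calcitriol and vehicle, from the 5th to the 95th percentile, was -0.63 to 0.52, and for 26239 probes with calcidiol and vehicle it was -0.40 to 0.45. All Vdr values lay inside these ranges.

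The 250 bases before the Vdr start in RefSeq (GRCm38.p6, chr15:97908297-97908546, - strand) are shown because this is the promoter of the receptor gene whose level is described. Capitals mark GC boxes, found as GGGCGG on either strand, a motif that Sp1 family factors bind.
Vdr promoter: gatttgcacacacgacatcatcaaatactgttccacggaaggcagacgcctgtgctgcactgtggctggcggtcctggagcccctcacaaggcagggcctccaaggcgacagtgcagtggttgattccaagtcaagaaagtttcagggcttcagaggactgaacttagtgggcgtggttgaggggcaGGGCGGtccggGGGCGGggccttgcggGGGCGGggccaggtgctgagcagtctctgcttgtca
The window holds 3 GC boxes and no TATAAA on either strand. Of 32851 promoter windows of the same length in the table, 32.7% hold a GC box and 12.4% a TATAAA. The table has 10 windows for 7 of the 9 genes. Of these 10 windows 8 hold a GC box, with at least 1 for each of the 7 genes. Direct repeats of AGGTCA or of GGTTCA with any 3 bases between the copies, the kind of site the receptor binds, were not found on either strand in these 10 windows, and each of these repeats is present in 0.00609% of all windows. These letters describe the windows only.

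The heterodimer partners came next. Rxra, retinoid X receptor alpha, was read by a bright probe (chr2:27618345-27618404, mm9, + strand) with signals of 3267 for calcitriol, 2826 for calcidiol and 3450 for vehicle, and by a dim one (chr2:27615316-27615375) with 40.6 for calcitriol, 45.1 for calcidiol and 36.8 for vehicle. The calcidiol array is the lowest by the bright probe and the highest by the dim probe. The bright probe stood at -0.10 ± 0.20 with calcitriol and -0.40 ± 0.20 with calcidiol relative to vehicle, and the dim probe at 0.12 ± 0.26 with calcitriol and 0.18 ± 0.27 with calcidiol. The probes of Rxra therefore disagree in sign against vehicle under this scaling. With each array centred on its median, the bright probe was at 0.01 with calcitriol.

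Rxrb, retinoid X receptor beta, was read by 3 probes. The brightest (chr17:34175279-34175338, mm9, + strand) had signals of 3780 for calcitriol, 3362 for calcidiol and 3183 for vehicle. The pair printed above had 120.0 and 64.5 for calcitriol, 107.8 and 72.0 for calcidiol, and 101.7 and 68.4 for vehicle. With calcitriol probes 1 and 2 stood at 0.23 ± 0.20 and 0.22 ± 0.21 relative to vehicle, and probe 3 at -0.10 ± 0.22. With calcidiol all 3 probes lay between -0.04 and -0.03 relative to vehicle. The SD between the Rxrb probes was 0.005 with calcidiol and 0.19 with calcitriol. The technical error of each probe with calcidiol was between 0.204 and 0.225. The closeness with calcidiol is thus finer than the spots can resolve. Rxrg, the remaining retinoid X receptor gene, had a signal of 2.91 with calcitriol, 3.86 with calcidiol and 2.79 with vehicle, none well above background.

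Ncor1, the corepressor that binds unliganded nuclear receptors and carries histone deacetylase 3 with it, had the most probes. The brightest (chr11:62130536-62130595, mm9, - strand) had signals of 3756 with calcitriol, 4282 with calcidiol and 3925 with vehicle. Probe 2, printed above, had 3550 with calcitriol, 3686 with calcidiol and 4063 with vehicle, and probe 3 had 1230 with calcitriol, 1243 with calcidiol and 1333 with vehicle. Probes 2 and 3 were highest with vehicle and probe 1 highest with calcidiol. Relative to vehicle these 3 probes lay between -0.21 and -0.08 with calcitriol and between -0.25 and 0.01 with calcidiol.

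The dimmer Ncor1 probes did not follow a common pattern. The probe for transcript variant 3 (chr11:62215226-62215285) had signals of 121.7 with calcitriol, 82.5 with calcidiol and 107.2 with vehicle. It stood at 0.16 ± 0.21 with calcitriol and at -0.49 ± 0.22 with calcidiol relative to vehicle, so calcitriol exceeded calcidiol by 0.65 ± 0.22, or 1.57-fold. A probe designed from an Ensembl transcript (chr11:62180446-62180505) went the other way, with 48.6 for calcitriol, 69.7 for calcidiol and 55.5 for vehicle, and calcitriol minus calcidiol was -0.43 ± 0.23. A further probe (chr11:62162905-62162964) had 30.9 with calcitriol, 25.7 with calcidiol and 26.4 with vehicle.

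On the strand opposite to Ncor1, probe 4 at chr11:62145208-62145267 had signals of 168.9 with calcitriol, 190.0 with calcidiol and 163.7 with vehicle. It differed from vehicle by 0.03 ± 0.21 with calcitriol and 0.10 ± 0.21 with calcidiol. Probe 8 at chr11:62139812-62139871 had 20.5 with calcitriol, 15.6 with calcidiol, where it was not well above background, and 17.9 with vehicle. Set against the lowest signal detected with calcidiol, its bounds were 1.22-fold higher with calcitriol and 1.08-fold higher with vehicle. Its technical error was 0.36 on the log2 scale for calcitriol minus vehicle, so no minimum difference follows. Signal at the first of these sites was thus well above background on all 3 arrays, and its differences were within the technical error.

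**Figure D1:**
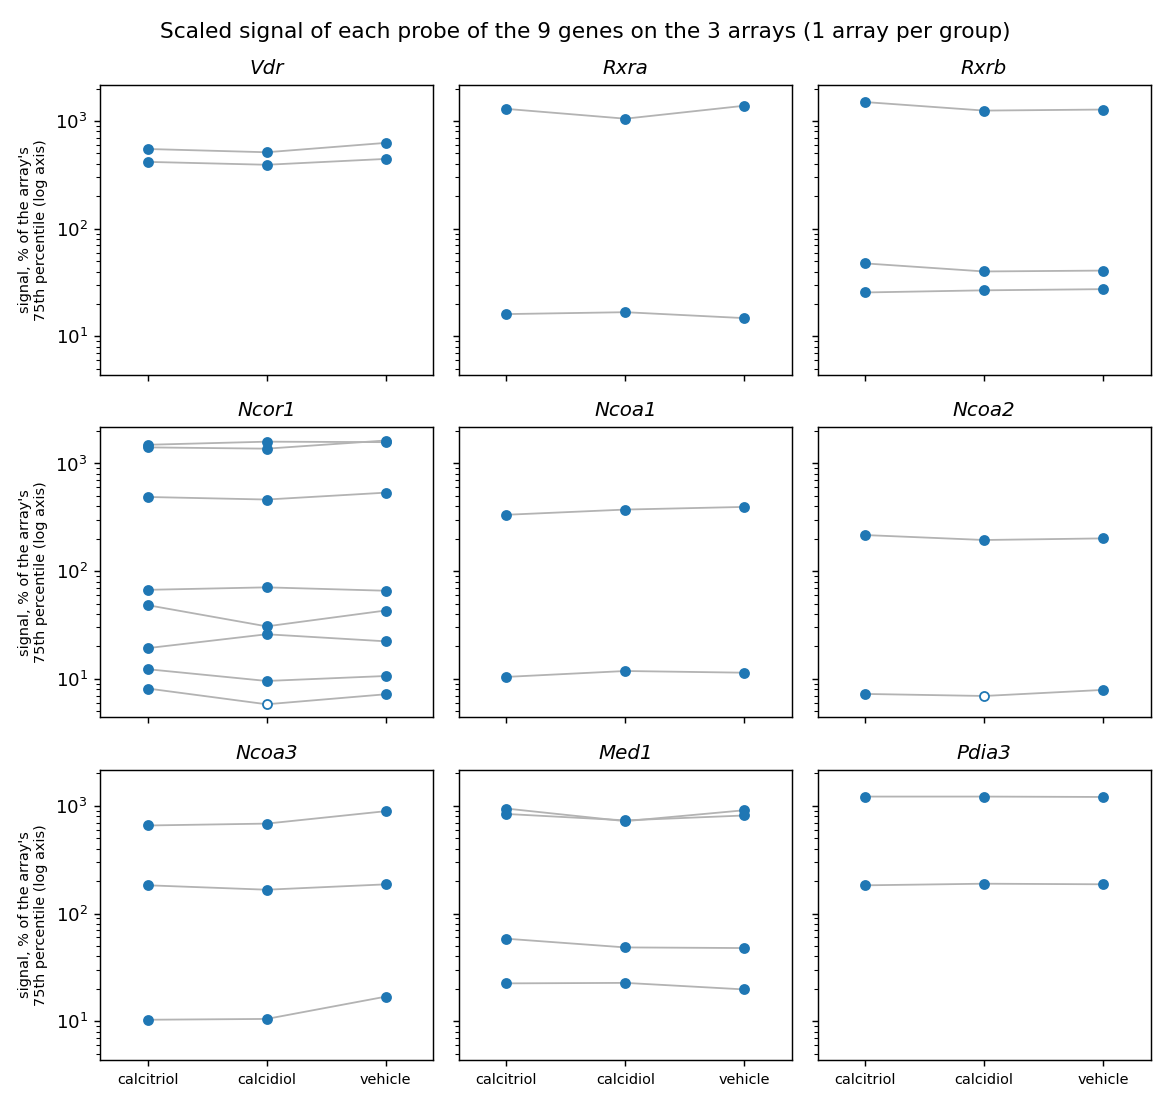
Signal of each probe as a percent of the array's 75th percentile (log axis) for the 9 genes on the calcitriol, calcidiol and vehicle arrays, 1 array per group. Lines join the values of 1 probe and open circles mark a spot not well above background. The lines are near level for most probes, and the clearest drop on both hormone arrays is the dimmest Ncoa3 probe.

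The p160 coactivators Ncoa1, Ncoa2 and Ncoa3 bind the hormone-bound receptor and bring in histone acetyltransferases. Among them Ncoa3 stood farthest from vehicle. Its brightest probe (chr2:165898682-165898741, mm9, + strand) had signals of 1655 for calcitriol, 1838 for calcidiol and 2219 for vehicle. Its probe 2 (chr2:165896318-165896377) had 460.7 for calcitriol, 447.2 for calcidiol and 464.3 for vehicle. Its probe 3, printed above, had 26.0 for calcitriol, 28.2 for calcidiol and 42.0 for vehicle. Probes 1 and 3 were highest with vehicle, and probe 2 was nearly level.

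With calcitriol the Ncoa3 probes stood at -0.44 ± 0.20, -0.03 ± 0.20 and -0.71 ± 0.27 relative to vehicle, from the brightest to the dimmest. With calcidiol they stood at -0.38 ± 0.20, -0.17 ± 0.20 and -0.69 ± 0.29. The dimmest was 1.64-fold lower with calcitriol and 1.61-fold lower with calcidiol than with vehicle. The probes of the gene thus agree in sign under this scaling and differ in size, with an SD between probes of 0.34 for calcitriol and 0.26 for calcidiol. The vehicle signal of probe 3 was 42.0, where the lowest signal well above background on that array was 13.4, and dim probes pass 1.5-fold more often than bright ones. Of 5886 probes with a mean signal under 25% of the 75th percentile, 646 were at least 1.5-fold lower with calcitriol than with vehicle, as were 900 of 20436 brighter probes. For calcidiol the counts were 238 of 5803 dim probes and 132 of 20436 brighter ones.

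Ncoa1 was read by a bright probe (chr12:4249560-4249619, mm9, - strand) with signals of 840.7 for calcitriol, 1003 for calcidiol and 982.4 for vehicle, and by a dim one (chr12:4252822-4252881) with 26.2 for calcitriol, 31.8 for calcidiol and 28.4 for vehicle. Before scaling, both were lowest with calcitriol and highest with calcidiol. After scaling, both were still lowest with calcitriol, but the bright probe was highest with vehicle. They stood at -0.24 ± 0.20 and -0.13 ± 0.30 with calcitriol relative to vehicle, and at -0.08 ± 0.20 and 0.05 ± 0.31 with calcidiol. Calcitriol minus calcidiol was -0.16 ± 0.20 and -0.18 ± 0.32, close between the probes and within the technical error.

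Ncoa2 had signals of 544.7 for calcitriol, 522.9 for calcidiol and 501.0 for vehicle at its bright probe (chr1:13129343-13129402, mm9, - strand), which stood at 0.10 ± 0.20 with calcitriol and -0.05 ± 0.20 with calcidiol relative to vehicle. Its dim probe (chr1:13139131-13140771, in more than 1 piece) had 18.2 for calcitriol, 18.6 for calcidiol and 19.6 for vehicle, and was not well above background with calcidiol. That probe read 1.14-fold lower with calcidiol than with vehicle after scaling. This is its measured ratio, since its own calcidiol signal exceeded the lowest one detected there, 17.9. Its technical error was 0.39 on the log2 scale for calcitriol minus vehicle, so no minimum difference follows.

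Med1, the Mediator subunit through which liganded nuclear receptors reach RNA polymerase II, was read by 4 probes on the - strand of chromosome 11. The brightest (chr11:98015632-98015690, mm9) had signals of 2376 for calcitriol, 1937 for calcidiol and 2264 for vehicle. Probe 2 (chr11:98013580-98013639), designed from transcript variant 2, had 2117 for calcitriol, 1971 for calcidiol and 2024 for vehicle. Both were lowest with calcidiol. Probe 3 (chr11:98016556-98016615) had 147.0 for calcitriol, 130.2 for calcidiol and 118.9 for vehicle, and probe 4 (chr11:98034538-98034597) had 56.6 for calcitriol, 61.0 for calcidiol and 49.1 for vehicle.

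With calcitriol all 4 Med1 probes lay above 0 relative to vehicle, between 0.05 and 0.29. With calcidiol the 2 brighter probes stood at -0.34 ± 0.20 and -0.15 ± 0.20 and the 2 dimmer ones at 0.02 ± 0.21 and 0.20 ± 0.24. Calcitriol minus calcidiol ran from -0.02 to 0.39 over the 4 probes. No Med1 probe was 1.5-fold apart in any comparison.

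Pdia3, a disulfide isomerase of the endoplasmic reticulum that helps glycoproteins fold and has been proposed as a membrane-associated binding protein for calcitriol, was nearly level on all 3 arrays. Its bright probe had signals of 3071 with calcitriol, 3277 with calcidiol and 3010 with vehicle, and its dimmer probe 460.4 with calcitriol, 508.6 with calcidiol and 465.0 with vehicle. The calcidiol array, whose 75th percentile is the highest, also read highest at both probes. After scaling, the probes stood at 0.01 ± 0.20 and -0.03 ± 0.20 with calcitriol and at 0.01 ± 0.20 and 0.02 ± 0.20 with calcidiol relative to vehicle.

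**Figure D2:**
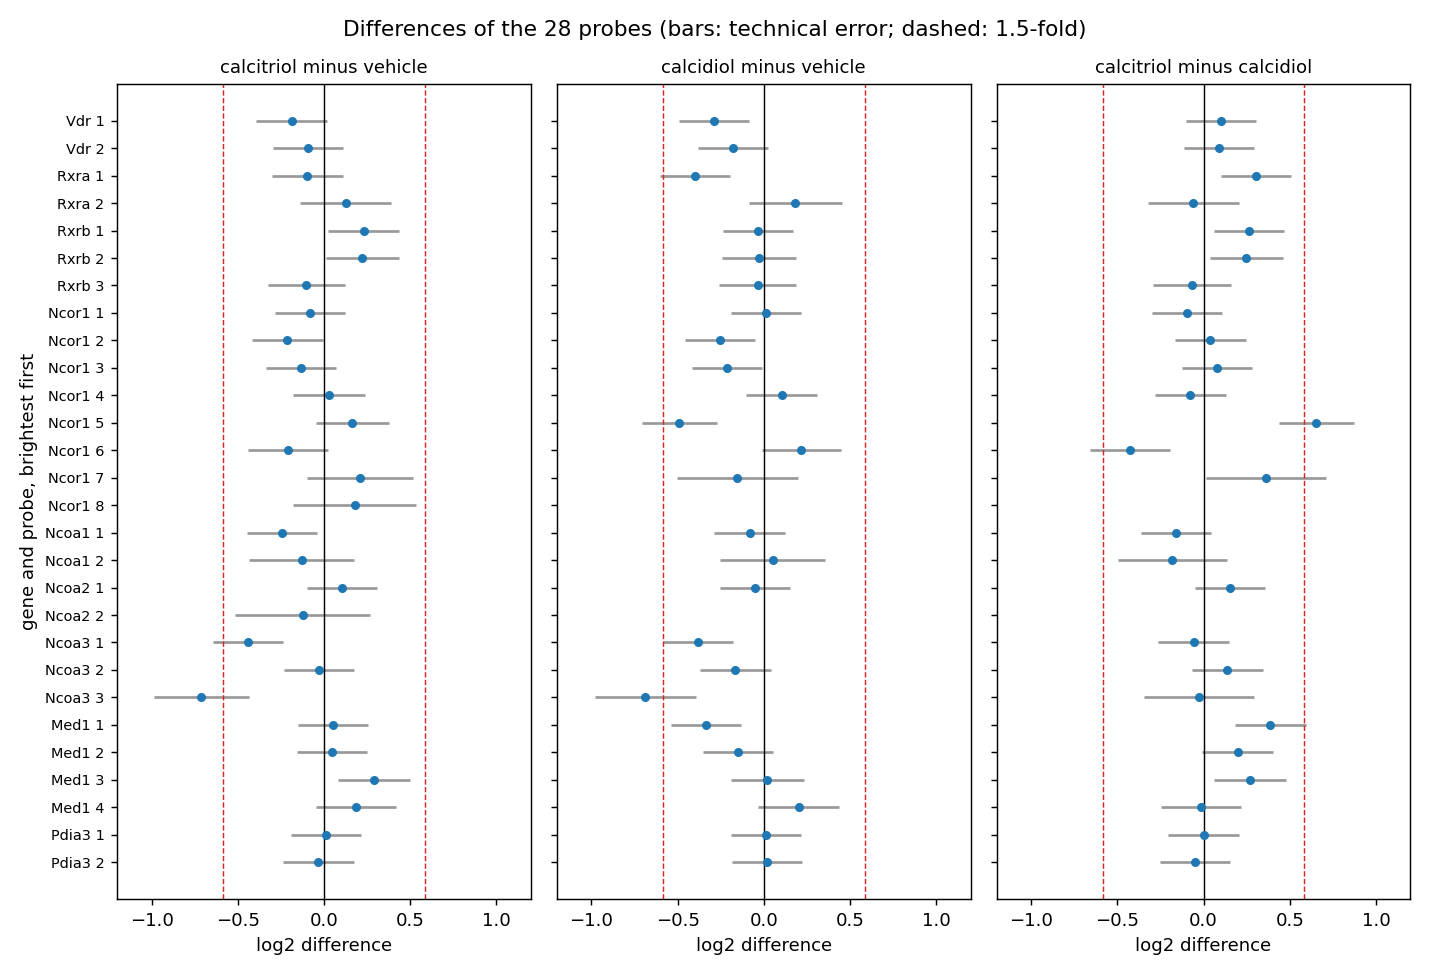
Log2 differences of the 28 probes for calcitriol minus vehicle, calcidiol minus vehicle and calcitriol minus calcidiol, grouped by gene with the brightest probe first, with horizontal bars for the scanner's technical error and dashed lines at 1.5-fold. Ncoa3 probe 3 lies past the line with both hormones and Ncor1 probe 5 in the direct comparison, and 2 probes not well above background with calcidiol have no point there.

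Read together by size, 1 of 28 probes, Ncoa3 probe 3, was at least 1.5-fold lower with calcitriol than with vehicle, where 5.87% of all probes measured on both arrays were, and 0 were at least 1.5-fold higher, where 3.78% were. With calcidiol the same probe was 1 of 26 at least 1.5-fold lower, against 1.41% of all probes, and 0 were higher, against 2.87%. In the direct comparison the variant 3 probe of Ncor1 was 1 of 26 at least 1.5-fold higher with calcitriol than with calcidiol, against 2.59% of all probes, and 0 were lower, against 5.15%. At 2-fold no probe of the 9 genes was called in any comparison. The backgrounds at 2-fold were 0.992% higher and 1.5% lower for calcitriol, 0.819% higher and 0.133% lower for calcidiol, and 0.439% higher and 1.35% lower between the hormones. Single calls among 26 or 28 probes do not set these genes apart from those shares.

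By the brightest probe of each gene, the median over the 9 genes was -0.08 with calcitriol, 5 of 9 below 0, and -0.08 with calcidiol, 7 of 9 below 0. Over all genes measured, the median was 0.01 with calcitriol, 48.2% below 0, and -0.01 with calcidiol, 52.2% below 0. Calcitriol minus calcidiol had a median of 0.10 over the 9 genes, 6 of them above 0, and of 0.02 over all 16786 genes, 8914 of them above 0. Centring each array on its median instead moved the median of all genes to 0.12 with calcitriol, -0.10 with calcidiol and 0.21 between the hormones, and the medians of the 9 genes moved with it to 0.03, -0.17 and 0.30. The sign of the calcitriol median thus turned with the scaling. All 9 genes had several probes measured with calcitriol and vehicle, and in 4 of them (Vdr, Ncoa1, Ncoa3 and Med1) every probe had the same sign. With calcidiol this held for 4 of 8 genes (Vdr, Rxrb, Ncoa3 and Pdia3), and between the hormones for 3 of 8 (Vdr, Ncoa1 and Pdia3, whose brighter probe was at 0.00). The same share over all genes with several probes was not computed, so these counts do not set the 9 genes apart. Median centring moves all probes of a comparison alike. Signs near 0 can therefore turn, such as -0.09 for Vdr probe 2 and -0.03 for Ncoa3 probe 2 with calcitriol.

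Other genes of receptor coregulation were read from 6 lists by their brightest probe. Of 87 genes, 86 were measured in every comparison, all but Rxrg. At least 1.5-fold, 4 were higher and 2 lower with calcitriol than with vehicle, where 3.6% and 5.99% of all genes were. With calcidiol 2 were higher and 0 lower, against 2.86% and 1.34% of all genes. Between the hormones 2 were higher and 3 lower with calcitriol than with calcidiol, against 2.39% and 5.37%, and centring on the median turned this split to 9 higher and 3 lower. At 2-fold, 1 was higher and 2 lower with calcitriol, against 1.03% and 1.62% of all genes, 1 was higher and 0 lower with calcidiol, against 0.868% and 0.142%, and 0 were higher and 2 lower between the hormones, against 0.465% and 1.4%. The medians over the 86 genes were 0.07, 0.00 and 0.08 in the 3 comparisons.

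Nrip1 stood out among the corepressors. It encodes RIP140, which binds hormone-bound nuclear receptors and represses their transcription. Its brightest probe (chr16:76291555-76291614, mm9) had signals of 1170 with calcitriol, 909.1 with calcidiol and 523.3 with vehicle. The other 4 probes had between 134.6 and 356.1 with calcitriol, between 101.6 and 296.1 with calcidiol, and between 59.5 and 171.9 with vehicle. Every one of the 5 probes was highest with calcitriol, intermediate with calcidiol and lowest with vehicle.

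Across its 5 probes Nrip1 was between 2.05-fold and 2.50-fold higher with calcitriol than with vehicle, and between 1.58-fold and 1.64-fold higher with calcidiol. On the log2 scale these are 1.03 to 1.32 with calcitriol and 0.66 to 0.71 with calcidiol, each with a technical error between 0.20 and 0.22. Calcitriol minus calcidiol was 0.36 to 0.61. In structure, calcitriol has a hydroxyl group at carbon 1 that calcidiol lacks, and both were given at 1e-07 M for 24 h. At 2-fold, Nrip1 was the only gene of its 14-gene list past the threshold with calcitriol by its brightest probe. Lcor, of the same list, was at 0.00 with calcitriol relative to vehicle by its brightest probe. Its 4 other measured probes ran from -1.12 to 0.39. All 5 Nrip1 probes lay at least 27 rows or columns from the array edge.

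**Figure D3:**
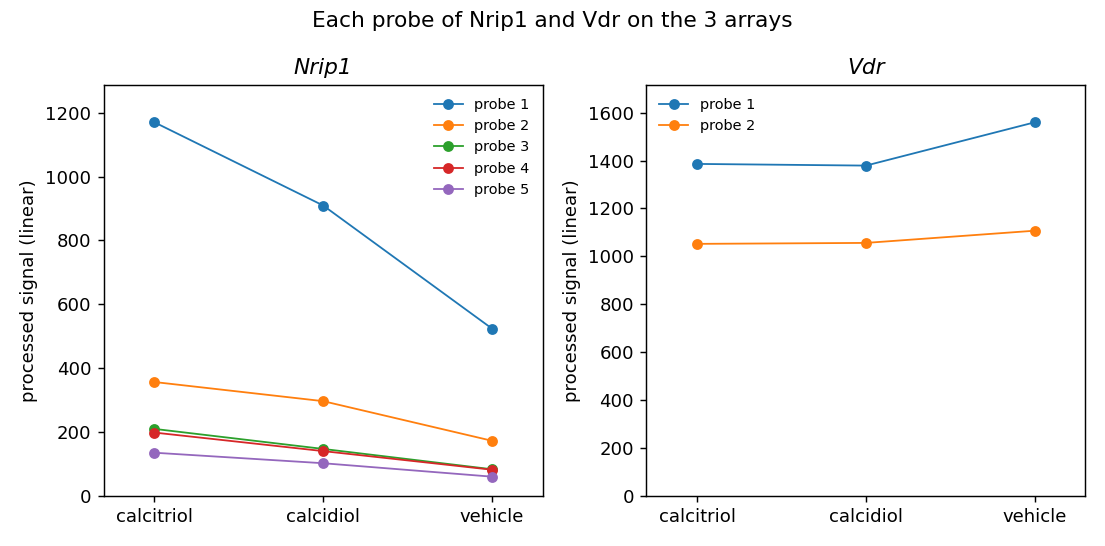
Processed signal (linear axis from 0) of each probe of Nrip1 (left) and Vdr (right) on the calcitriol, calcidiol and vehicle arrays, 1 array per group, with lines joining the values of 1 probe. The Vdr probes stay between 1052 and 1560 on all arrays, while each of the 5 Nrip1 probes is highest with calcitriol and lowest with vehicle.

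**Figure D4:**
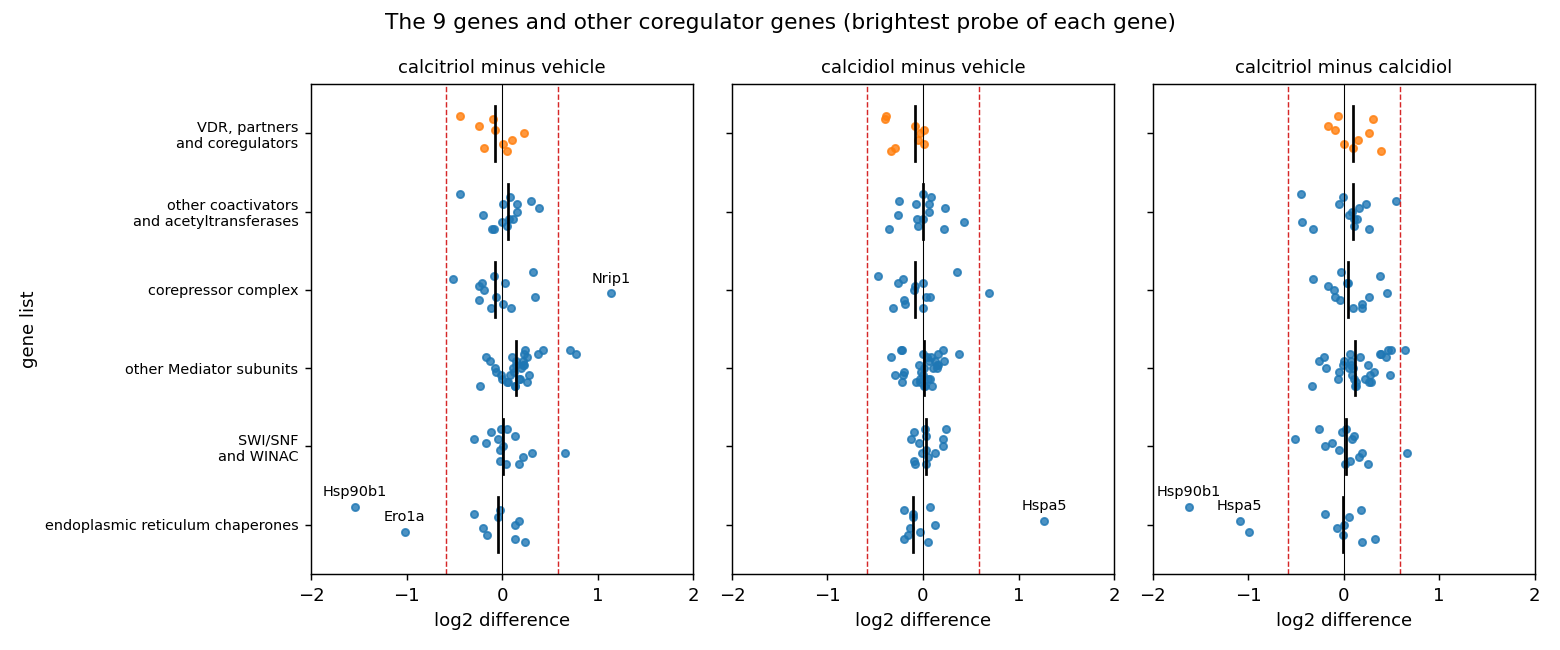
Log2 difference of each gene by its brightest probe in the 3 comparisons, for the 9 genes (orange) and the coregulator lists (blue), with a black bar at each list's median, dashed lines at 1.5-fold and names on genes at least 2-fold apart. Nrip1 is at 1.14 with calcitriol, the 9 genes lie between -0.44 and 0.39 in all panels, and the points beyond 1 among endoplasmic reticulum chaperones are partly from the array edge.

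The corepressor list as a whole, Nrip1 included, had a median of -0.08 with calcitriol and -0.09 with calcidiol relative to vehicle. With calcidiol its lowest gene was Hdac7, a class IIa histone deacetylase, at -0.47 relative to vehicle. The Hdac7 spot lay 3 rows or columns from the edge. Between the hormones Nrip1 was highest at 0.46, calcitriol minus calcidiol.

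Of 14 other coactivators and acetyltransferases, 0 were 1.5-fold apart in any comparison by their brightest probe. Other probes of Kat2a, Ncoa7 and Ep300 did pass 1.5-fold. Those of Ncoa7 gave -0.71 and 0.07 with calcitriol relative to vehicle, where its brightest gave 0.30. With calcitriol the acetyltransferase gene Kat2a was highest at 0.38, on a spot at the very rim of the array, and its other probe gave 0.67. Ep300, which encodes the acetyltransferase p300, was lowest at -0.44, and its 2 other probes gave -0.10 and -0.28. With calcidiol Kat2b was highest at 0.43 and Calcoco1 lowest at -0.36, where its other probe gave 0.14. Between the hormones Ncoa7 was highest at 0.55, where its 2 other probes gave -0.65 and 0.16, and Ep300 was lowest at -0.44, where its 2 other probes gave -0.67 and -0.02.

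Of 32 other Mediator subunits, 25 lay above 0 with calcitriol, with a median of 0.14. Over all 16942 genes, 8779 lay above 0, with a median of 0.01. The median of 0.14 is smaller than the technical error of 0.20 of a bright probe. Each gene counts here by its brightest probe alone, and signs near 0 can turn. At least 1.5-fold higher were 2 of the 32, against 3.6% of all genes. These 2 were Med12l at 0.77 and Med10 at 0.71. Another Med12l probe gave 0.18, and Med10 was read 3 rows or columns from the edge while its other probe gave 0.32. Med16 was lowest at -0.24, and its other probe gave -0.23. With calcidiol the median was 0.01, and Med12l was highest at 0.38 and Med25 lowest at -0.34, where its other probe gave -0.01. Between the hormones Med19 was highest at 0.64, from a spot 5 rows or columns from the edge, and its other probe gave 0.14, while Med16 was lowest at -0.33, where its other probe gave -0.05.

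Of 15 chromatin remodelling genes of the SWI/SNF and WINAC complexes, Smarcd1 was 1.57-fold higher with calcitriol than with vehicle, at 0.65 ± 0.23, and 1.59-fold higher with calcitriol than with calcidiol. Its only probe had signals of 85.1 with calcitriol, 57.3 with calcidiol and 53.4 with vehicle. The lowest with calcitriol was Smarcc2 at -0.30, which was also lowest between the hormones at -0.51. With calcidiol Arid2 was highest at 0.25, also on a rim spot, and Arid1a lowest at -0.13. These values are from brightest probes. The dimmer Smarcb1 probe gave -0.59 with calcitriol and -0.77 between the hormones, where its brightest gave -0.02 and -0.05.

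By brightest probes, the endoplasmic reticulum genes that work beside Pdia3 held the other differences of 2-fold or more. Ero1a, the oxidase that recharges disulfide isomerases, had signals of 2836 with calcitriol, 6004 with calcidiol and 5686 with vehicle, which is 2.03-fold lower with calcitriol than with vehicle and 1.98-fold lower than with calcidiol. From its only probe, calcitriol minus vehicle was -1.02 ± 0.20. With each array centred on its median this became -0.91, short of 2-fold. Hsp90b1 (GRP94) had 6358 with calcitriol, 20820 with calcidiol and 18340 with vehicle, 2.92-fold lower with calcitriol than with vehicle, from its only probe, 4 rows or columns from the array edge. Hspa5 (BiP) was 2.41-fold higher with calcidiol than with vehicle by a spot 3 rows or columns from the edge. The other Hspa5 probes, 7 and 13 rows or columns in, gave -0.16 and -0.19. The part of the array edge in the Hsp90b1 value was not tested, since no other probe reads it.

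In this list of 11 genes Calr was highest with calcitriol at 0.24, Pdia4 lowest with calcidiol at -0.20, and Pdia6 highest between the hormones at 0.33, beside a lowest value of -1.62 for Hsp90b1. The list medians were -0.04 with calcitriol and -0.10 with calcidiol, close to those of Pdia3. The Calr spot lay 2 rows or columns from the edge and the Pdia6 spot 6. No probe of the 9 genes lay nearer to the edge than 6 rows or columns, and 1 of them, Rxrb probe 2, lay at 6.

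The genes of the lists nearest to Vdr in their pair of differences from vehicle were Ppargc1a at -0.21 with calcitriol and -0.27 with calcidiol, Tbl1x at -0.21 with calcitriol and -0.26 with calcidiol, and Sin3a at -0.12 with calcitriol and -0.31 with calcidiol. Their distances from Vdr were 0.029, 0.036 and 0.073 on the log2 scale over 3 arrays, out of 86 list genes. Of 16663 other genes measured on all arrays, 249 lay as near as Sin3a.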

How the data were processed

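Total RNA of 3 cultures was read on 1-colour arrays, all on 1 slide. Each deposited scanner file gives intensity per spot, unlogged. Background subtraction and detrending were done in Feature Extraction 10.7.1.1 per the file headers, which place probes on mm9, but version 9.5.1.1 stands in the submitters' processing notes. The deposited value table also holds intensity, with a log2 median of 3.71 in each column and a correlation of at least 0.99992 with the scanner log2 signals. The sources used here do not give its scaling, but its differences nearly equalled those of quantile normalisation here. It served only as an alternative. Control spots and spots with a feature outlier flag were left out, spots of a probe were averaged as log2, and each array's 75th percentile over the 56605 probes was subtracted. No spot was saturated. Differences need a probe that is well above background on both arrays. A probe detected on 1 array of a pair has a bound, its signal there over the dim array's floor, which is its lowest detected signal or the probe's own if that is higher. Genes outside the 9 were read from their brightest probe, with design names updated through RefSeq synonyms (GRCm38.p6). Promoters and gene strands came from RefSeq tables of that assembly. With 1 array a group there was no test, and genes were described by 1.5-fold and 2-fold thresholds. The number of arrays limits the precision. The 9 genes and all lists were chosen with earlier results of these data known. The text names every probe of the 9 genes, Cyp24a1, the highest and lowest gene of each list, any list gene at least 2-fold apart and the 3 list genes nearest to Vdr. Other list genes past 1.5-fold, and Lcor and Smarcb1 for other probes of theirs, were added after their values were seen. Some genes that this rule or the marker lists take are not reported here. Counts past a fold were checked on simulated signals with known shifts. Python 3.11.15 (numpy 2.4.6, pandas 2.3.3, matplotlib 3.10.9) was used throughout, and R 4.3.3 with limma 3.58.1 for normexp. Alternatives were median centring, quantile normalisation, normexp with an offset of 50 and quantile normalisation, an offset of 32, detection on at least 1 array, outlier spots kept, the value table, the outermost 6 rows and columns left out, the mean over probes and the 2-fold threshold.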

Additional observations from a re-analysis of the deposited data

How the results depend on the processing

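Of 429 differences and medians recomputed under the alternatives, 13 moved by more than the technical error. Another 2, both of Hspa5, went from past 2-fold to the other side of 0. Signs nearer 0 turned too, such as Rxra with calcitriol from -0.10 to 0.01 under median centring. The 429 are not separate checks. Keeping outlier spots, or detection on at least 1 array, left the differences of the genes checked unchanged. The value table nearly repeated quantile normalisation. Among the 9 genes those that moved by more than the error were Rxra, Med1 and Ncor1. Rxra was at -0.18 with calcidiol against vehicle and 0.04 between the hormones under normexp with quantile normalisation. As the mean over probes, Rxra was at -0.11 and Med1 at -0.07, both with calcidiol, and Ncor1 at 0.13 between the hormones. That Ncor1 mean includes both opposite-strand probes, of which probe 8 was not well above background with calcidiol. Vdr stayed within -0.23 to -0.08 with calcitriol and -0.38 to -0.23 with calcidiol, and Nrip1 within 1.03 to 1.25 and 0.60 to 0.71. Hspa5 reversed without the outermost 6 rows and columns, to -0.15 with calcidiol against vehicle and 0.065 for calcitriol minus calcidiol, because a probe farther in was then read. The single probes of the 9 genes past 1.5-fold gave counts of 0 in all 3 comparisons under normexp with quantile normalisation, with an offset of 32 and at 2-fold. The Ncoa3 probe is under 25% of the 75th percentile on every array, and the Ncor1 probe is not. Of the 86 other coregulator genes, the 4 higher with calcitriol became 1 under normexp, 2 with the offset and 1 at 2-fold, and the 2 lower became 1 without the edge. The 2 higher with calcidiol became 1 without the edge and 1 at 2-fold. The 2 higher between the hormones became 9 with median centring, 0 under normexp, 1 with the offset, 1 without the edge, 1 as the mean over probes and 0 at 2-fold, and the 3 lower became 1 without the edge. Where no reason is stated the cause was not tested. No paired analysis was possible because each group had 1 array.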
